A study of Mus musculus with 9 samples.

Results

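The B cell receptor signalling core comprised 9 genes, chosen by symbol from the signalling pathway of the B cell antigen receptor (BCR): Cd79a, Cd79b, Syk, Btk, Blnk, Plcg2, Vav1, Pik3ap1 and Pik3cd. All 9 were found among the 24346 genes listed, and all 9 passed the filter on low values. RNA-seq was performed on sorted splenic B cells of wild-type C57BL6 mice, which carried no transgene, in 3 groups of 3 libraries. These were follicular (FO) B cells of 8-week-old mice (young FO B cells), FO B cells of 50-week-old mice (aged FO B cells) and age/autoimmunity-associated B cells (ABCs) of 50-week-old mice. By the sort described in the study's methods, FO B cells were, among other markers, B220 high, CD43-, CD23+ and CD21 low. ABCs were sorted from the same B220 high, CD43- gate as CD23-, CD21 low, CD11b+ and CD11c+ cells. Levels are in FPKM, a unit scaled to transcript length and to library size, so levels of different genes can be set side by side. Where 3 values follow each other, they are those of replicates 1, 2 and 3.

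The BCR is a membrane immunoglobulin that binds antigen but cannot signal by itself. It is paired with the heterodimer of Ig-alpha and Ig-beta, whose cytoplasmic tails hold the tyrosine motifs (ITAMs) that Src family kinases phosphorylate. The kinase SYK docks on these motifs and phosphorylates the adaptor BLNK, on which BTK, PLCG2 and VAV1 assemble, while the adaptor BCAP recruits PI3K. The outputs are calcium release, diacylglycerol signalling to NF-kB and ERK, remodelling of the cytoskeleton, and AKT activity.

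The transcripts of the sort markers were first set beside the gates, as a description only, because the cells were chosen by these proteins. Fcer2a (CD23) was at 4.15, 6.95 and 0.464 FPKM in ABCs and at 697, 716 and 728 FPKM in aged FO B cells. Itgam (CD11b) and Itgax (CD11c) were at 45.0 FPKM or more in each ABC library and under 1 FPKM in each FO B library. Spn, which encodes CD43, was at 62.6, 54.1 and 86.7 FPKM in ABCs against 2.75 to 3.32 FPKM in aged FO B cells, although both gates took CD43- cells. Cr2 (CD21) was at 4.93, 8.39 and 0.745 FPKM in ABCs against 127 to 166 FPKM in aged FO B cells, although both gates were CD21 low. Ptprc (CD45, of which B220 is a form) was at 263.6 FPKM or more in all 9 libraries.

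The libraries held about 7470000 to 8890000 mapped reads each, approximated from the steps between the lowest FPKM values, where 1 step is taken as 1 read. For the 9 genes this gave about 1400 reads (Btk) to 43400 reads (Cd79a) per library, and a counting error of at most 2.64%. ABC replicate 3 stood apart from the others of its group, with a Pearson r across genes of 0.964 and 0.958 against 0.980 between replicates 1 and 2, so the members' differences between ABCs and aged FO B cells are also given without it. Each group stands for 3 mice by the figure legends, but whether aged FO B cells and ABCs came from the same mice, or whether any library was pooled, is not stated in the sources used here.

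Syk and Btk, the tyrosine kinases of the core, were its members with the largest rise and the largest decrease in ABCs. Their promoter sequences are therefore shown (250 bases before to 50 after the start, RefSeq, GRCm38.p6, 5′ to 3′ on the strand of the gene). RefSeq gives Syk 2 start sites. Capitals mark matches to the E-box CANNTG, which reads the same on both strands.
Syk, upstream start, chr13:52583187-52583486, plus strand: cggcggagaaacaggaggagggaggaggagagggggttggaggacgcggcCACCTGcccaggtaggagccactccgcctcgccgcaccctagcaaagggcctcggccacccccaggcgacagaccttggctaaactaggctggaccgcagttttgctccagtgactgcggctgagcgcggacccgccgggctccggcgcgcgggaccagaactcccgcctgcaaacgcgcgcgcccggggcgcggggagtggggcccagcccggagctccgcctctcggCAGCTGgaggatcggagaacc
Syk, downstream start, chr13:52596632-52596931, plus strand: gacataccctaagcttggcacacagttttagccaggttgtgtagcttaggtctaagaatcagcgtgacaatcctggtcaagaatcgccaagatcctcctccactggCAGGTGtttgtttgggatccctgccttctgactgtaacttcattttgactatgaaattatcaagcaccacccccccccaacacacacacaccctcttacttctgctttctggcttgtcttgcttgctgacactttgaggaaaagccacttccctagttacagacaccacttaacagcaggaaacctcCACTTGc
Btk, chrX:134583091-134583390, minus strand: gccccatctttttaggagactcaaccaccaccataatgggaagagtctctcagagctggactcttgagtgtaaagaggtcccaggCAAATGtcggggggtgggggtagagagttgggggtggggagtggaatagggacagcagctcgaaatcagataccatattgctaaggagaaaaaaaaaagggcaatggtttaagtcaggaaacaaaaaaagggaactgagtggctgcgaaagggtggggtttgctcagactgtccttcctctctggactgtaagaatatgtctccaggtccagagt

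The upstream Syk promoter held 2 E-boxes, the downstream one 2 and that of Btk 1, in an annotation where 72.3% of 32851 promoters of this length held at least 1. The Ets core GGAA, searched on both strands as GGAA or TTCC, had 0 matches in the upstream Syk promoter, 3 in the downstream one and 5 in that of Btk, and was present in 96.0% of all promoters. The Ebf1 core CCCNNGGG was found in none of the 3 sequences and in 13.7% of all promoters. Matches of CANNTG can overlap those of the other motifs. A match describes letters only, and the FPKM files do not say which Syk start was used in these cells.

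In ABCs compared with aged FO B cells, 2 of the 9 genes rose (Syk and Plcg2), 1 decreased (Btk) and 6 were not called. Syk was 2.52-fold higher, Plcg2 was 1.37-fold higher and Btk was 1.36-fold lower. Calls were made with limma on log2(FPKM + 1) at a Benjamini-Hochberg FDR under 0.05. Over all 10412 genes tested, 19.4% rose and 16.5% decreased by the same rule, so the number of members called was close to the share over all genes. The libraries of both groups did not overlap for 4 members that were higher in ABCs and 2 that were lower, where 26.3% of all genes were higher without overlap and 26.3% were lower. The median log2 fold change was 0.10 over the 9 genes and -0.01 over all genes. Fewer cells of a type and less RNA per cell cannot be told apart in these bulk libraries.

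**Figure D1:**
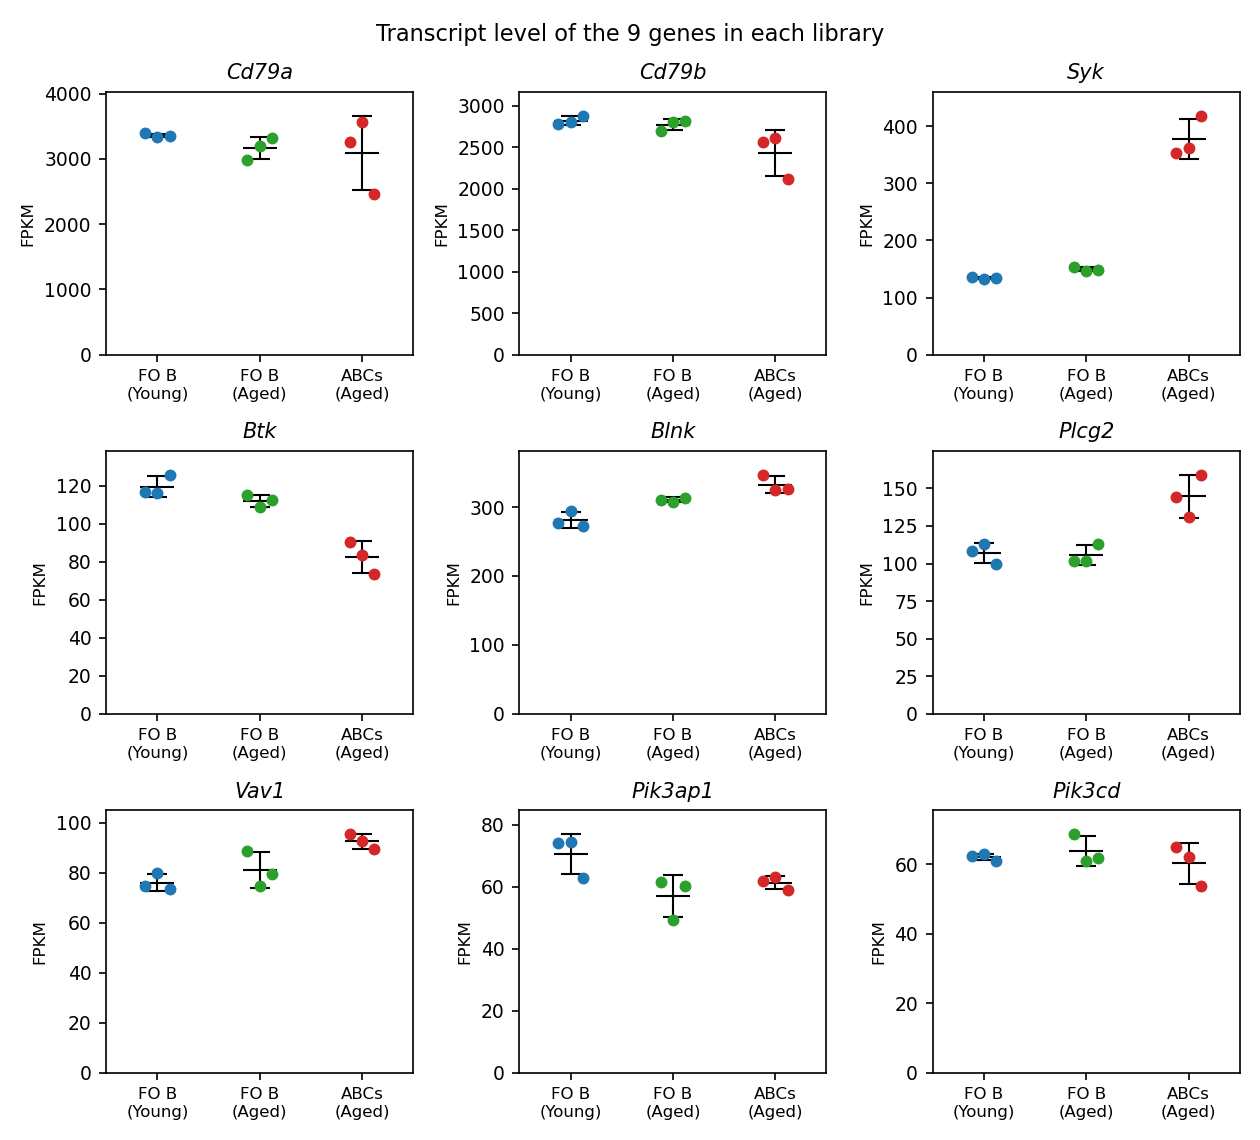
FPKM of each of the 9 genes (vertical axes start at 0) in the 3 libraries of young FO B cells (blue), aged FO B cells (green) and ABCs (red), with the mean and SD of each group in black. Syk sits at 353 to 418 FPKM in ABCs and at 133 to 154 FPKM in all FO B libraries, whereas Btk sits at 73.8 to 90.7 FPKM in ABCs, below the FO B libraries.

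Cd79a and Cd79b, the signalling chains of the receptor, were the most abundant transcripts of the core in every group. Cd79a (chromosome 7, 24897381 to 24902197, plus strand) encodes Ig-alpha. Its level was 3389.9, 3339 and 3349.5 FPKM in young FO B cells, 2991, 3196 and 3317 FPKM in aged FO B cells and 3252, 3562 and 2462 FPKM in ABCs. The ABC libraries spanned the range of the aged FO B libraries, and replicate 3 was the lowest of all 9 libraries. The log2 fold change between ABCs and aged FO B cells was -0.05 (95% interval -0.38 to 0.28, adjusted p = 0.802), and it was 0.10 without ABC replicate 3. The interval thus includes differences in either direction.

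Cd79b (chromosome 11, 106311341 to 106314762, minus strand) encodes Ig-beta, the partner chain. Its level was 2780.5, 2804 and 2878 FPKM in young FO B cells, 2700.2, 2808 and 2811 FPKM in aged FO B cells and 2567, 2614 and 2112 FPKM in ABCs. Each ABC library lay below each FO B library, but the difference from aged FO B cells was not called (log2 fold change -0.20, 95% interval -0.43 to 0.04, adjusted p = 0.168), and without ABC replicate 3 it was -0.10. Both genes ranked between position 15 and position 36 among the genes of at least 1 FPKM in every library. The ratio of Cd79a to Cd79b was 1.19 ± 0.03 in young FO B cells, 1.14 ± 0.04 in aged FO B cells and 1.27 ± 0.10 in ABCs (mean ± SD, n = 3). The ratios of ABCs and aged FO B cells overlapped (exact two-sided permutation test p = 0.2, 0.25 after adjustment over 15 ratio tests).

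Syk (chromosome 13, 52583173 to 52648792, plus strand) encodes the tyrosine kinase that binds phosphorylated ITAMs. Syk was at 137, 133 and 134 FPKM in young FO B cells, 154, 147 and 148 FPKM in aged FO B cells and 353, 362 and 418 FPKM in ABCs. All 3 ABC libraries lay far above all 6 FO B libraries. Between ABCs and aged FO B cells the log2 fold change was 1.33 ± 0.08 (SE, adjusted p = 5.41e-05), and without ABC replicate 3 it was 1.25. Syk stood above 92.8% to 93.3% of the genes of at least 1 FPKM in aged FO B libraries and above 97.0% to 97.4% in ABC libraries. It was called under each of the alternative settings, with log2 fold changes of 1.23 to 1.51.

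Btk (chromosome X, 134542336 to 134583570, minus strand) encodes the Tec family kinase that activates PLCG2. Btk was at 117, 116 and 126 FPKM in young FO B cells, 115, 109 and 113 FPKM in aged FO B cells and 90.7, 83.8 and 73.8 FPKM in ABCs. Each ABC library was lower than each FO B library. The log2 fold change from aged FO B cells was -0.44 ± 0.09 (SE, adjusted p = 0.00701) and -0.36 without ABC replicate 3. Scaling the libraries to the upper quartile of genes above 0 shifted the median log2 fold change of all genes by 0.17, and Btk, at -0.26, was then not called (adjusted p = 0.261).

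Blnk (chromosome 19, 40928927 to 40994535, minus strand) encodes the adaptor that links SYK to BTK and PLCG2. Its level was 277, 294 and 272 FPKM in young FO B cells, 311, 308 and 314 FPKM in aged FO B cells and 347, 324 and 326 FPKM in ABCs. The 3 groups did not overlap, in the order young FO B cells, aged FO B cells and ABCs. The step from aged FO B cells to ABCs was small and not called (log2 fold change 0.10, 95% interval -0.04 to 0.23, adjusted p = 0.238), and with quantile normalization its sign changed (-0.03). Without ABC replicate 3 it was 0.11.

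Plcg2 (chromosome 8, 117498291 to 117635142, plus strand) encodes the phospholipase that releases the calcium and diacylglycerol signals. Plcg2 was at 108, 113 and 99.6 FPKM in young FO B cells, 102, 102 and 113 FPKM in aged FO B cells and 144, 131 and 159 FPKM in ABCs. The ABC libraries were above all FO B libraries, while both FO B groups overlapped. The log2 fold change between ABCs and aged FO B cells was 0.45 ± 0.09 (SE, adjusted p = 0.00771) and 0.38 without ABC replicate 3. With no filter on low values, when 24346 genes entered the adjustment, the adjusted p was 0.0501.

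Vav1 (chromosome 17, 57279100 to 57328031, plus strand) encodes an exchange factor for Rac GTPases. It was at 74.8, 79.9 and 73.3 FPKM in young FO B cells, 88.8, 74.6 and 79.6 FPKM in aged FO B cells and 95.3, 92.8 and 89.3 FPKM in ABCs. The lowest ABC library was just above the highest aged FO B library, and the difference was not called (log2 fold change 0.19, 95% interval 0.01 to 0.38, adjusted p = 0.0994), at 0.22 without ABC replicate 3.

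Pik3ap1 and Pik3cd stand for the PI3K arm of the pathway. Pik3ap1 (chromosome 19, 41272377 to 41385102, minus strand) encodes BCAP, an adaptor that brings PI3K to the membrane. It was at 74.0, 74.6 and 63.0 FPKM in young FO B cells, 61.4, 49.1 and 60.2 FPKM in aged FO B cells and 62.0, 63.0 and 59.0 FPKM in ABCs. Pik3cd (chromosome 4, 149649168 to 149702571, minus strand) encodes the delta catalytic subunit, the main PI3K isoform of B cells. It was at 62.2, 62.8 and 61.0 FPKM in young FO B cells, 68.7, 61.0 and 61.8 FPKM in aged FO B cells and 65.0, 61.9 and 53.8 FPKM in ABCs. For both genes the ABC and aged FO B libraries overlapped. The log2 fold change was 0.11 for Pik3ap1 (95% interval -0.11 to 0.34, adjusted p = 0.392) and -0.08 for Pik3cd (95% interval -0.30 to 0.13, adjusted p = 0.499). Without ABC replicate 3 these were 0.14 and -0.01. All 9 genes are annotated as protein-coding in GENCODE M21 on GRCm38, with positions as given here, and none shares exon bases with another annotated gene.

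Aged and young FO B cells were then compared. None of the 9 genes was called by limma (0 higher and 0 lower, where 0.346% and 0.119% of 10122 genes were called higher and lower). At an unadjusted p under 0.05, 3 of the 9 passed, as did 1298 of all genes tested. These were Syk (log2 fold change 0.15, 95% interval 0.04 to 0.26, adjusted p = 0.239), Blnk (0.15, 95% interval 0.03 to 0.26, adjusted p = 0.262) and Pik3ap1 (-0.31, 95% interval -0.54 to -0.07, adjusted p = 0.253). The aged libraries were higher without overlap for Syk and Blnk and lower without overlap for Cd79a, Btk and Pik3ap1, against 9.64% and 8.96% of all genes. The intervals of the other 6 genes reached from -0.22 to 0.26 on the log2 scale, so that larger differences with age were outside them. The median over the 9 genes was -0.02.

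ABCs were also compared with young FO B cells, a comparison that shares its libraries with both others and is therefore given side by side and not as separate support. Syk (log2 fold change 1.48, adjusted p = 1.92e-05), Plcg2 (0.43, adjusted p = 0.00772), Vav1 (0.28, adjusted p = 0.0108) and Blnk (0.24, adjusted p = 0.0172) were called higher by limma and Btk (-0.53, adjusted p = 0.00285) lower. Thus 4 of 9 rose and 1 decreased, against 21.6% and 19.1% of 10438 genes. Without overlap, 4 members were higher and 2 lower (Btk and Cd79b), against 27.7% and 27.6%. The call of Blnk was lost with quantile normalization (log2 fold change 0.09, adjusted p = 0.252), with upper quartile scaling (0.29, adjusted p = 0.164), with the replicate block (adjusted p = 0.0548) and without young FO B replicate 1, young FO B replicate 3 or ABC replicate 1 (adjusted p = 0.0675, 0.0654 and 0.0568). With upper quartile scaling the calls of Vav1 (0.33, adjusted p = 0.116) and Btk (-0.48, adjusted p = 0.0672) were lost too, and that of Plcg2 was lost with no filter (adjusted p = 0.0510). Without ABC replicate 3 the same counts of 4 higher and 1 lower were found. Pik3ap1, at -0.19 (adjusted p = 0.0988), was called only without young FO B replicate 3 (-0.27, adjusted p = 0.0331) or with quantile normalization (-0.27, adjusted p = 0.0354). Over the 3 comparisons, 17 of 27 exact two-sided permutation tests of mean FPKM gave 0.1, the smallest p that 3 against 3 libraries allow, which is 0.159 after adjustment.

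**Figure D2:**
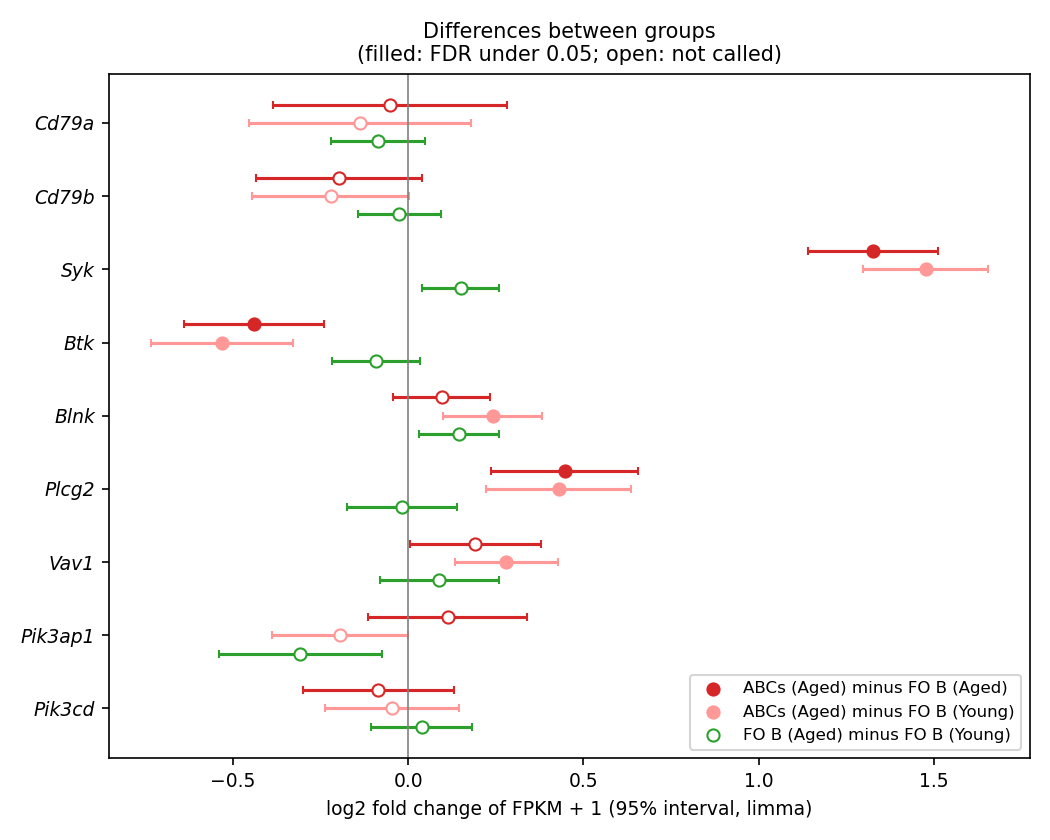
Log2 fold change of FPKM + 1 for each gene with its 95% interval from limma, for ABCs against aged FO B cells (red), ABCs against young FO B cells (pink) and aged against young FO B cells (green). Filled points have an FDR under 0.05, which holds for 3, 5 and 0 of the 9 genes, and Syk at 1.33 and 1.48 lies to the right of the other genes.

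The order of the members by mean level differed between the groups. In aged FO B cells it was Cd79a, Cd79b, Blnk, Syk, Btk, Plcg2, Vav1, Pik3cd and Pik3ap1, where Btk and Plcg2 overlapped, as did Pik3cd and Pik3ap1. In ABCs it was Cd79a, Cd79b, Syk, Blnk, Plcg2, Vav1, Btk, Pik3ap1 and Pik3cd, where the ranges of Cd79a and Cd79b and those of Pik3ap1 and Pik3cd overlapped. Syk was above Blnk in all 3 ABC libraries, and Btk was below Vav1 in all 3, although the ranges of Btk and Vav1 overlapped. Young FO B cells had the order of aged FO B cells except that Pik3ap1 was above Pik3cd.

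Ratios within a library do not depend on the scaling between libraries. The ratio of Syk to Btk was 1.17, 1.15 and 1.07 in young FO B cells, 1.34, 1.35 and 1.32 in aged FO B cells and 3.90, 4.32 and 5.66 in ABCs. Its mean was 3.46-fold higher in ABCs than in aged FO B cells, and 3.08-fold to 3.74-fold higher when single libraries were left out. The ratio of Syk to Blnk, the kinase to its adaptor, was 1.02, 1.12 and 1.28 in ABCs and between 0.454 and 0.495 in all FO B libraries. The ratio of Plcg2 to Btk, the phospholipase to its activating kinase, was 1.59, 1.56 and 2.15 in ABCs and between 0.792 and 1.01 in FO B libraries. For these 3 ratios ABCs and aged FO B cells did not overlap (exact two-sided permutation test p = 0.1 each, 0.188 after adjustment over 15 tests). The ratio of Pik3ap1 to Pik3cd was 1.02 ± 0.07 in ABCs and 0.891 ± 0.08 in aged FO B cells and overlapped between them (exact permutation test p = 0.2).

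**Figure D3:**
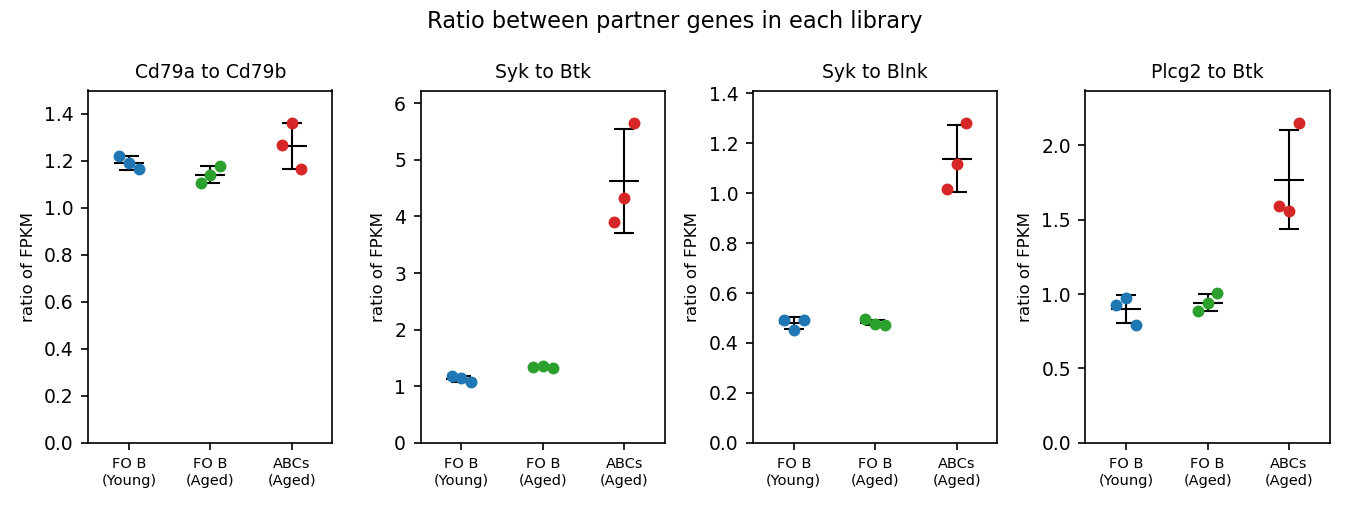
Ratio of FPKM between 4 pairs of genes within each library (vertical axes start at 0), with the mean and SD of each group in black. The ratio of Cd79a to Cd79b overlaps between ABCs and both FO B groups, whereas the ratio of Syk to Btk is 3.90 to 5.66 in ABCs and at most 1.35 in FO B libraries.

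The genes whose profile was most like that of Syk over the 9 libraries were Atp6v0e (Pearson r = 0.998), Itgb1 (r = 0.997) and Cd72 (r = 0.997), among 6403 genes of at least 10 FPKM. Those most like Btk were Lats2 (r = 0.990), Clcf1 (r = 0.987) and Gga2 (r = 0.986). The 9 libraries share the 3 groups, so these values describe the order of the groups. Atp6v0e, a subunit of the vacuolar proton pump, had a level of 410.2 ± 9.26 FPKM in aged FO B cells and 686 ± 39.7 FPKM in ABCs, and Clcf1, a cytokine, had 45.4 ± 2.10 and 21.9 ± 4.40 FPKM (mean ± SD, n = 3).

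The wider pathway was described with lists of genes that act beside the core. Of 152 listed genes, 132 were tested between ABCs and aged FO B cells, of which 37 rose, 35 decreased and 60 were not called, with a median log2 fold change of 0.01. With upper quartile scaling the split was 38 to 18, and over all genes 2455 to 601 in place of 2020 to 1719. Those 2020 and 1719 genes were 19.4% and 16.5% of the 10412 tested, the shares to set beside each list below. Without ABC replicate 3, 39 of 131 pathway genes tested were called higher and 40 lower. Between aged and young FO B cells 0 of 127 were called by limma, and 21 had an unadjusted p under 0.05. Of all 10122 genes tested there, 35 were called higher and 12 lower, and 1298 had an unadjusted p under 0.05. Ighm, Ighd, Igkc and the Iglc genes, which encode the antigen-binding chains, were not analysed here.

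The list of signalling adaptors of other receptors holds ITAM chains and Hcst, and 3 of its 4 genes tested, all of them ITAM chains, were higher in ABCs. Fcer1g, the common gamma chain of Fc receptors, was at 1.38, 1.14 and 10.4 FPKM in aged FO B cells and 418, 458 and 1219 FPKM in ABCs (log2 fold change 7.32, adjusted p = 0.000338, limma). Tyrobp (DAP12) was at 70.9, 72.6 and 77.9 FPKM in aged FO B cells and 264, 287 and 291 FPKM in ABCs (1.91, adjusted p = 8.99e-06). Cd3g, a T cell receptor chain, was listed at 0 in each aged FO B library and at 9.63, 37.0 and 4.93 FPKM in ABCs. Cd3g passed the filter on low values only through the ABC libraries, so it could only be called higher. Cd247, Cd3d and Cd3e were not tested for their low level. Hcst (DAP10), which carries a PI3K motif in place of an ITAM, was not called (0.19, adjusted p = 0.439). ABC replicate 3 was the highest for Fcer1g and the lowest for Cd3g.

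Among family relatives of the members, 3 of 10 rose, 4 decreased and 3 were not called. Lcp2 (SLP-76), the counterpart of Blnk in T and myeloid cells, was at 0.391, 0.129 and 0.465 FPKM in aged FO B cells and 10.3, 9.94 and 29.0 FPKM in ABCs (log2 fold change 3.55). Plcg1, the paralog of Plcg2, rose (0.65), as did Pik3cb (0.81). Pik3cb was at 0.476, 0.348 and 0.629 FPKM in aged FO B cells and 1.97, 1.73 and 1.14 FPKM in ABCs. Lcp2 and Pik3cb passed the filter on low values only through the ABC libraries, so both could only be called higher. Vav3, a relative of Vav1, decreased by 1.82 on the log2 scale and was at 1.17, 1.38 and 0.559 FPKM in ABCs. Tec, the founding member of the Btk family, decreased from 89.3, 91.7 and 87.9 FPKM to 59.8, 54.3 and 34.2 FPKM (-0.88, adjusted p = 0.0105, limma). The PI3K subunits Pik3ca (-0.74) and Pik3cg (-0.47) were lower. Tec, Pik3ca and Pik3cg were not called with upper quartile scaling, nor was Pik3cb with quantile normalization. Bank1 (-0.01), Vav2 (0.18) and Txk (0.20) were not called. Zap70, the Syk relative of T cells, was at 0.108 to 0.358 FPKM in ABCs and was not tested for its low level.

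Among coreceptor genes, 1 of 5 rose, 1 decreased and 3 were not called. The tetraspanin Cd81 was at 279, 267 and 295 FPKM in aged FO B cells and 472, 459 and 683 FPKM in ABCs (log2 fold change 0.92, adjusted p = 0.00357, limma). Cr2, whose product was used in the sort, was lower (-5.04). Ifitm2 (-0.37) and Ifitm3 (-1.30) were not called.

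Upstream of Syk, 4 of 9 Src family kinases and their controllers rose and 1 decreased. Fgr was at 16.5, 15.5 and 15.4 FPKM in aged FO B cells and 37.6, 30.1 and 41.2 FPKM in ABCs (log2 fold change 1.14, adjusted p = 0.000534, limma). Lyn, the main Src kinase of B cells, rose by 0.53 on the log2 scale. Csk, which inhibits Src kinases, was lower (-0.24, adjusted p = 0.0231), a call that was lost with upper quartile scaling. Of the adaptors and ubiquitin ligases around BLNK, 5 of 12 rose, with Lat2 at 1.13, Themis2 at 0.75 and Dok3 at 0.62, and 2 decreased, Cd2ap at -0.95 and Nck2 at -0.84. Dok3 was not called with quantile normalization (adjusted p = 0.0535) or as TPM (adjusted p = 0.0569).

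Inhibitory receptors and phosphatases, which dampen the BCR signal, rose for 6 of 10 genes tested, with a median log2 fold change of 1.03. Among these 6, Cd5 averaged 0.334 FPKM in aged FO B cells and 1.98 FPKM in ABCs. It passed the filter on low values only through the ABC libraries, so it could only be called higher. Cd72 was at 603, 596 and 537 FPKM in aged FO B cells and 2181, 2319 and 3100.1 FPKM in ABCs (2.11, adjusted p = 7.51e-05, limma). Fcgr2b, the inhibitory Fc receptor, was at 182, 149 and 189.7 FPKM against 804, 738 and 803 FPKM (2.17), and the phosphatase Ptpn22 rose by 2.88. Siglecg was lower (-0.71), and was not called with upper quartile scaling. The phosphatase Ptpn6 (SHP-1), which these receptors recruit, was not called (0.07, adjusted p = 0.722).

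In the PI3K list 4 of 9 rose and 2 decreased. Pik3r6, a regulatory subunit, was at 8.63, 8.54 and 13.7 FPKM in ABCs and under 0.3 FPKM in aged FO B cells (log2 fold change 3.26). Pik3r6 passed the filter on low values only through the ABC libraries, so it could only be called higher. The phosphatase Inppl1 (SHIP2) rose by 1.17, and Pik3r2 by 0.84. Inpp4b, a phosphatase of PI3K products, was lower at -1.76. In the AKT branch 1 of 10 rose (Akt2, 1.12) and 3 decreased, among them Rictor (-0.82) and Foxo1 (-0.39, not called with upper quartile scaling).

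Downstream of PLCG2 and VAV1 more genes were called lower than higher in 3 of 4 branches. With upper quartile scaling this held in 2 of 4, and the calcium branch turned to 3 higher and 1 lower. Without that scaling, 19.4% of all genes tested rose and 16.5% decreased. The lists pool genes that promote and genes that restrain a branch, so these counts do not describe its activity. In the calcium and NFAT branch 3 of 14 rose (Itpr2, 0.53, Nfatc1, 0.48, and Ppp3r1, 0.22) and 5 decreased, led by the calcium channel Itpr3 (-0.97), Nfatc3 (-0.47) and Orai1 (-0.44). Ppp3r1 was not called with quantile normalization (0.13, adjusted p = 0.14) or as TPM (0.18, adjusted p = 0.075), nor were Nfatc3 and Orai1 with upper quartile scaling. In the diacylglycerol and NF-kB branch 1 of 12 rose (Prkca, 0.91) and 5 decreased, led by Dgka (-1.01), Ikbkb (-0.69) and Dgkz (-0.47). In the Ras and ERK branch 1 of 14 rose (Rasgrp1, 0.45) and 5 decreased, among them Rasal3 (-0.76) and Mapk3 (ERK1, -0.75). In the branch of Rac and the cytoskeleton the order differed, with 3 of 10 higher (Dock8, 0.80, Dock2, 0.60, and Rac2, 0.43) and 2 lower (Was, -0.63, and Arhgdib, -0.27). Dgkz was not called with upper quartile scaling, and Arhgdib with neither that scaling nor quantile normalization. With upper quartile scaling the counts of lower genes fell to 1, 2, 4 and 1 in these branches, and the median of the calcium branch moved from 0.00 to 0.17, close to the shift of all genes.

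Transcription factors of the B lineage were higher for 2 of 13 genes and lower for 4. Ikzf3 was at 65.2, 59.5 and 60.9 FPKM in aged FO B cells and 143, 130 and 145 FPKM in ABCs (log2 fold change 1.16), and Irf8 rose by 0.55. Bach2 (-1.16), Ets1 (-1.09) and Ebf1 (-0.74) decreased the most, with Ebf1 not called after upper quartile scaling. Spi1 (-0.18) and Spib (-0.02), Ets factors of B cells, were not called.

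**Figure D4:**
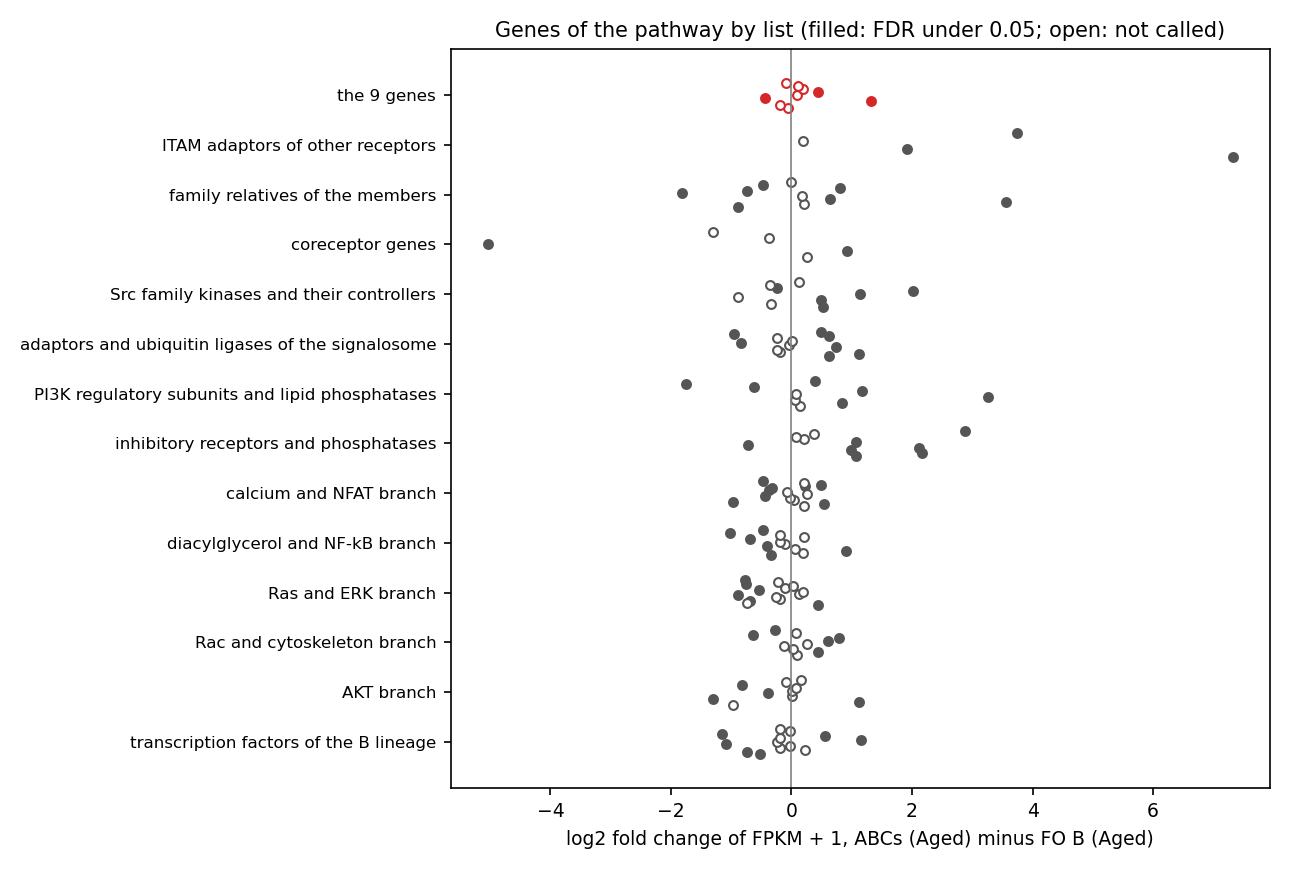
Log2 fold change of FPKM + 1 between ABCs and aged FO B cells for each gene tested (points) in the 9 genes of the core (red) and in 13 lists of the pathway (grey). Filled points have an FDR under 0.05. The 9 genes lie between -0.44 and 1.33, whereas Fcer1g at 7.32 and Cr2 at -5.04 mark the ends of the lists.

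Markers of other cell types that also express Syk or its relatives were read in the same libraries. Of 12 macrophage and monocyte markers, whose summed level was 274 to 323 FPKM in ABCs and 22.4 to 29.5 FPKM in aged FO B cells, most of the sum came from Adgre1 (198 FPKM on average in ABCs) and Ly6c2 (77.3, 84.1 and 61.3 FPKM). Csf1r, Cd14, Mertk, Fcgr1, C1qa, Cd163 and Marco were below 1 FPKM in each ABC library. Cd68 was at 12.6, 13.1 and 6.38 FPKM in ABCs (log2 fold change 1.13, adjusted p = 0.0155, limma), and Lyz2 (2.22 to 7.02 FPKM) and C1qb (1.30 to 2.42 FPKM) were low and not called. Of 10 T cell markers, with 5.20 to 39.4 FPKM in ABCs against 1.44 to 2.98 FPKM in aged FO B cells, Cd3e, Cd4 and Cd8a were each below 0.1 FPKM in ABCs and Cd3g made up most of the sum. The 8 NK cell markers summed to 29.5 to 38.2 FPKM in ABCs against 0.830 to 1.71 FPKM, of which Prf1 was 29.2 FPKM on average. Nkg7 was at 2.03, 1.84 and 0.202 FPKM in ABCs against 0, 0.169 and 0.187 FPKM, and was not tested for its low level. Klrd1 was at 2.99, 3.21 and 0 FPKM against 0.188, 0.155 and 0.517 FPKM and was not called. Ncr1, Eomes and Gzma were listed at 0 in each aged FO B library and below 0.2 FPKM in ABCs. Plasma cell markers summed to 1002 to 1292 FPKM in ABCs against 446 to 474 FPKM, and most of the sum came from Mzb1 (944 FPKM on average in ABCs). Of 7 plasma cell markers tested, 5 were called higher in ABCs, namely Mzb1 (log2 fold change 1.56), Derl3 (2.39), Jchain (2.34), Prdm1 (1.97) and Sdc1 (1.82). Xbp1 (0.23) and Irf4 (-0.18) were not called. Prdm1, at 0.378 FPKM on average in aged FO B cells, passed the filter on low values only through the ABC libraries. The 8 dendritic cell markers reached 9.47 to 13.9 FPKM in ABCs against 2.93 to 5.42 FPKM. Of 3 tested, Batf3 (log2 fold change 2.37) and Zbtb46 (1.21) were called higher and Flt3 (-0.86) was not called. Batf3 and Zbtb46 passed the filter on low values only through the ABC libraries. The 7 neutrophil markers reached at most 1.04 FPKM in ABCs against 1.08 to 21.8 FPKM. The part of these cells in the results for the core was not tested.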

How the data were processed

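The authors deposited 1 table of FPKM values per library, for 24346 gene symbols. SMART-Seq HT cDNA and Nextera XT libraries do not mark strand. The submitters' processing notes name TopHat2 2.1.1, Bowtie2 2.2.8, SAMtools 0.1.18, Cuffdiff 2.2.1 and mm10, the methods name Cufflinks, and the annotation and any scaling between libraries are not given in the sources used here. Cuffdiff scales between libraries by default, and if it made the files, the read numbers approximated here are shifted with that scaling. Groups were taken from the sample titles.

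Genes averaging 1 FPKM or more in the 6 libraries compared were put on a log2(FPKM + 1) scale, and limma 3.58.1 was fitted (lmFit, then eBayes allowing a trend, R 4.3.3). P-values were adjusted over all genes tested, and genes were called below an FDR of 0.05 whatever their fold change. Fold changes of low genes are understated by the pseudocount of 1 FPKM. A gene averaging under 1 FPKM in 1 group could pass the filter only through the other group. Such a gene could only be called higher in that other group. The step was tested on simulated data. For single levels and ratios, a two-sided exact permutation test over 20 orders was used.

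The members, the lists and the ratios were chosen with earlier results of these data known. Named in the text are all members, the up to 3 largest called changes in each direction per pathway list, all ITAM adaptors, coreceptor genes and family relatives of at least 1 FPKM, the sort markers, and the most abundant and the lowest marker genes. Some genes that were not called (Zap70, Ptpn6, Spi1 and Spib) were named after their values were seen, as were Cd5, Nkg7, Klrd1 and Zbtb46. Mapped reads were approximated from the smallest steps of low FPKM values, and counting errors cover counting only. Alternatives were a pseudocount of 0.1, no filter, a filter at 5 FPKM, quantile normalization, upper quartile, TPM, no trend, all 9 libraries, the replicate block, an FDR under 0.01 and each library left out. The settings for the pathway lists were added after the data were seen. Some genes of the lists are counted but not reported here by name. A planned search of protein sequences was not run, because no protein table was used here.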

Additional observations from a re-analysis of the deposited data

How the results depend on the processing

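No call among the 9 genes changed direction, and 421 of 450 single values under the alternatives were judged the same. For the genes, the same means that direction and side of the threshold were kept. The ratio of Cd79a to Cd79b was the only ratio included, with single libraries left out. Its values were judged the same when they moved by less than the pooled SD of the groups. Between ABCs and aged FO B cells, 1 gene was called higher in place of 2 with no filter (Plcg2, adjusted p = 0.0501), and 0 were called lower in place of 1 with upper quartile scaling (Btk, -0.26). Between ABCs and young FO B cells, 2 were called higher in place of 4 with upper quartile scaling or an FDR under 0.01. With quantile normalization 2 were called lower in place of 1 and with upper quartile scaling 0. Leaving out single libraries gave 1 to 2 lower, with 2 without young FO B replicate 3. In the pathway lists, 18 in place of 35 genes were called lower with upper quartile scaling, which raised the median of all genes by 0.17, and the cause was not tested. With the replicate block, 2 genes were called higher and 1 lower between ABCs and aged FO B cells, 0 between the FO B groups, and 3 higher and 1 lower between ABCs and young FO B cells. Deviations of libraries with the same replicate number correlated between -0.09 and 0.14 over all comparisons. Between ABCs and aged FO B cells they correlated at 0.08, -0.02 and 0.11. Libraries with different numbers were not compared, so these values cannot tell whether the libraries were paired by number. These values do not settle whether libraries came from the same mice. The direction of Cd79a, Pik3cd, Vav1, Plcg2 and Blnk changed in comparisons where they were not called. With 3 libraries per group, the printed intervals limit what the values show.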
